A study of Mus musculus with 6 samples.

Results

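The genes that encode the proteins of the cytosolic ribosome were followed by RNA-seq in the cerebral cortex of C57BL/6 mice, taken on postnatal day 7. Members were the rows whose symbol starts with Rpl or Rps and a digit, or is Rpsa, Rplp0, Rplp1 or Rplp2. S6 kinases and symbols marked as pseudogenes were left out. The rule on names found 89 symbols, of which 85 had a mean of at least 1 TPM and were members, among 14994 genes at that level and 35857 rows in all. TPM is a transcript abundance per length that sums to 1000000 in each library and keeps no depth. The 3 control libraries came from wild type mice and the 3 knockout libraries from mice labelled Qk-/-. No other allele or treatment is labelled, and the way in which Qk was removed, and in which cells, is not given in the sources used here. Qk, which encodes the RNA-binding protein quaking, was at 36.5, 43.2 and 41.3 TPM in the controls and at 14.6, 15.2 and 15.4 TPM in the knockouts (log2 change −1.36, SE 0.0945, limma adjusted p = 0.000855). All 8 markers of the cortex were detected. Nothing in the labels says whether the libraries of a group came from separate litters, and p-values measure the spread between these libraries.

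A ribosome is built of a small subunit, which decodes the mRNA, and a large subunit, which joins amino acids. Each subunit holds ribosomal RNA and a single copy of most of its proteins. Most mRNAs of ribosomal proteins begin with a C followed by an unbroken run of C and T bases, the 5′ terminal oligopyrimidine tract, through which mTOR signalling and Larp1 govern their translation. Ribosomal protein genes are also the parents of many processed pseudogenes, copies of the spliced mRNA set back into the genome.

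Some members have a pyrimidine tract at or near an annotated start site. RefSeq start sites (GRCm38.p6) were at hand for 64 of the 85 members. In the following windows the annotated first base is preceded by 10 bases, and capitals mark the pyrimidine tract. They belong to members described further on, the last 2 of them with no tract in the window. In the windows of Rps27rt and Rpl38 the tract begins at the annotated first base, in the other marked windows before or after it.
Rps27 (chr3:90213633-90213658, minus strand): cgctttcgCTCCTTTCCggcggtgac
Rps27rt (chr9:114982724-114982749, minus strand): ttatcccttgCTTTCCggcggtgacg
Rpl28 (chr7:4792955-4792980, plus strand): tctcgtgtCTCTCTTTCCgtctccgg
Rplp2 (chr7:141447641-141447666, plus strand): cagcgtCTTCCTTTCgccgccggacg
Rpl38 (chr11:114668570-114668595, plus strand): aagcctcgttCTTTCCCCgttctctt
Rps2 (chr17:24720053-24720078, plus strand): gtcgagatctcgcgCTTCTTggagca
Rpl26 (chr11:68901556-68901581, plus strand): ggcaacttacagaaccggaagtcgcg
Rpl41 (chr10:128549153-128549178, minus strand): gggccggctcggaagtgacgacaccg
A C followed by at least 4 bases that are C or T began exactly at an annotated start in 14 of the 64 members (21.9%), against 813 of 27025 genes in the same table (3.01%). Only the sense strand, which reads as the mRNA does, was searched. With the tract allowed to start from 10 bases before to 15 bases after the annotated first base, the shares were 64.1% and 38.7%. The 41 members with a tract in that wider window had a median log2 change between the groups of 0.09 and the other 23 of 0.13. A match describes the letters in the window and not the base at which transcription starts in this tissue.

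The 85 members together took between 10.7% and 12.01% of the TPM of a library. Their share was 11.4%, 10.9% and 10.7% in control replicates 1, 2 and 3 and 12.01%, 11.5% and 11.5% in knockout replicates 1, 2 and 3. All knockout libraries lay above all control libraries, with control replicate 1 closest to the knockouts. The mean went from 10.99% ± 0.338 to 11.7% ± 0.294 (SD, n = 3), a difference of 0.683 percentage points and a ratio of 1.06. This share is a sum over the members and was given no test. Since TPM has a fixed total, a larger share of the members leaves a smaller share for other genes. In a bulk sample, more cells of a type and more RNA per cell cannot be told apart.

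Both subunits had a larger share in the knockouts. The 50 large subunit rows took 6.77%, 6.43% and 6.33% of the TPM in the controls and 7.01%, 6.79% and 6.84% in the knockouts. For the 35 small subunit rows the shares were 4.58%, 4.46% and 4.37% in the controls and 4.998%, 4.69% and 4.68% in the knockouts. Neither subunit overlapped between the groups. The sum of the large subunit rows over that of the small subunit rows was 1.46 ± 0.0191 in the controls and 1.44 ± 0.0307 in the knockouts (SD, n = 3), with overlap.

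**Figure D1:**
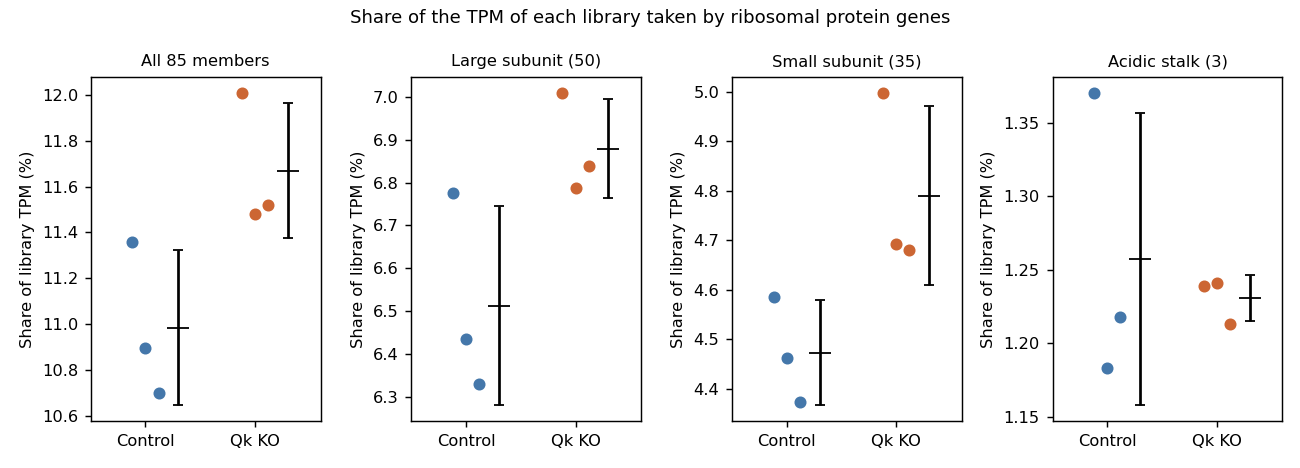
Share of the TPM of each library (y axis, percent, not starting at 0) taken by all 85 members, the large subunit, the small subunit and the acidic stalk, in 3 control and 3 knockout libraries (points), with the group mean and SD (bars). All members together lie between 10.7% and 11.4% in the controls and between 11.5% and 12.01% in the knockouts, while the stalk overlaps.

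No single member passed the test. Of 14994 genes fitted with limma on log2(TPM + 1), 58 passed an adjusted p of 0.05 (0.387%), 0.1% higher and 0.287% lower in the knockout, and 0 of the 85 members were among them in either direction. The smallest limma adjusted p of a member was 0.194, for Rpl37rt. At an unadjusted p under 0.05, 16 members were higher in the knockout (18.8%) and 0 were lower, beside 3.42% and 5.3% of all tested genes. The log2 change was above 0 in 65 of 85 members (76.5%), against 43.0% of all tested genes. It ranged from −0.36 to 0.72 with a median of 0.10, beside a median of −0.03 over all tested genes. In 21 members every knockout library lay above every control library (24.7%, against 5.2% of all tested genes). Among them are Rpl23 and Rps15a, which did not stay above once near-identical copies were added, as described further on. Rpl31, Rpl24 and Rps7 were above only in such sums. In 1 member, Rps2, every knockout library lay below (1.18%, against 8.98%).

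The median standard error of a member's log2 change was 0.0927, beside the median change of 0.10. Over the 19 other settings tried, the members with a log2 change above 0 numbered 58 to 72 and the members' median lay between 0.07 and 0.13. Members higher at an unadjusted p under 0.05 numbered 8 to 23. They numbered 8 without control replicate 3, 8 without knockout replicate 1 and 9 without knockout replicate 3. Members lower at that level numbered 0 to 2, with 2 without control replicate 2 and 2 without knockout replicate 3. The share of all tested genes at that level was taken in the main fit only. The counts of members in the other settings therefore have no background beside them. Members lay above their own mean over the 6 libraries in 60, 49 and 57 of 85 cases in knockout replicates 1, 2 and 3. In control replicates 1, 2 and 3 it was 35, 18 and 18 of 85. The members' median log2 deviation was −0.0203, −0.0363 and −0.0622 in the controls and 0.0818, 0.0406 and 0.0422 in the knockouts. Over all tested genes it was 0.0137, −0.0055 and 0.0406 in the controls and −0.0110, −0.0236 and 0.000149 in the knockouts. These deviations show the same group difference by library and are not a further result.

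**Figure D2:**
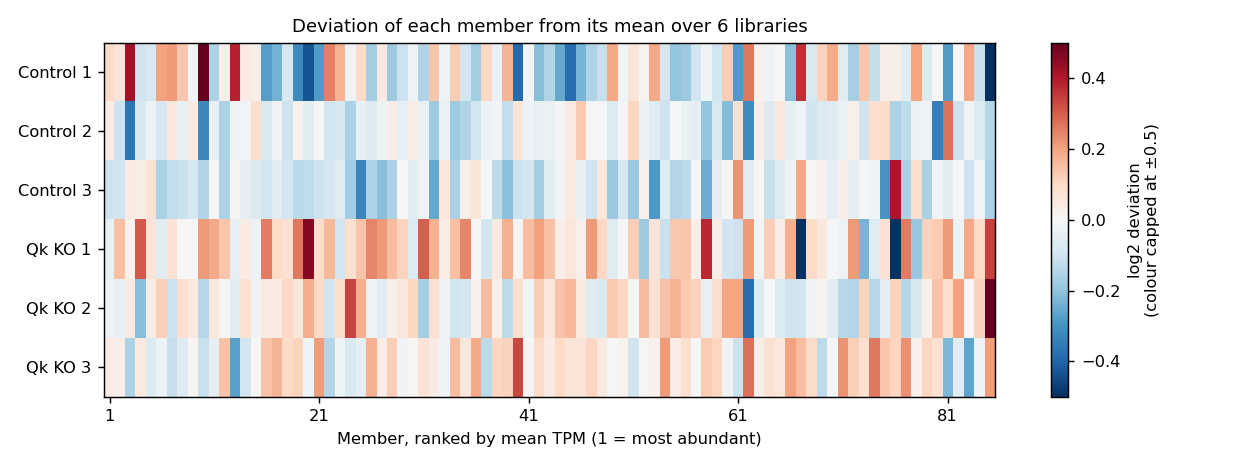
Log2 deviation of each of the 85 members from its own mean over the 6 libraries (colour, capped at ±0.5), with members in columns from the most to the least abundant and libraries in rows. Red cells are more frequent in the knockout rows, where 60, 49 and 57 members lie above their mean, than in the control rows (35, 18 and 18). No such counts were taken over all tested genes.

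Transcript length and abundance were set beside this difference, since the mRNAs of the members are short and abundant. The main transcript of a gene was picked from GENCODE by protein-coding, principal and basic tags, and then as the longest. It need not be the one expressed in this tissue. For Rps15a it had 5179 bases and for Rps20 3706 bases. The members' main transcripts had a median length of 878 bases, against 3048 bases over all tested genes. Another 716 protein-coding genes with a transcript under 1000 bases had a median log2 change of 0.02, with 53.5% above 0. In 143 of these with a mean of at least 200 TPM the median was 0.02 and 53.8% were above 0. After a loess correction of each library for length and GC content, the members' median was 0.08 and that of all tested genes 0.003, with 62 of 85 members above 0.

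**Figure D3:**
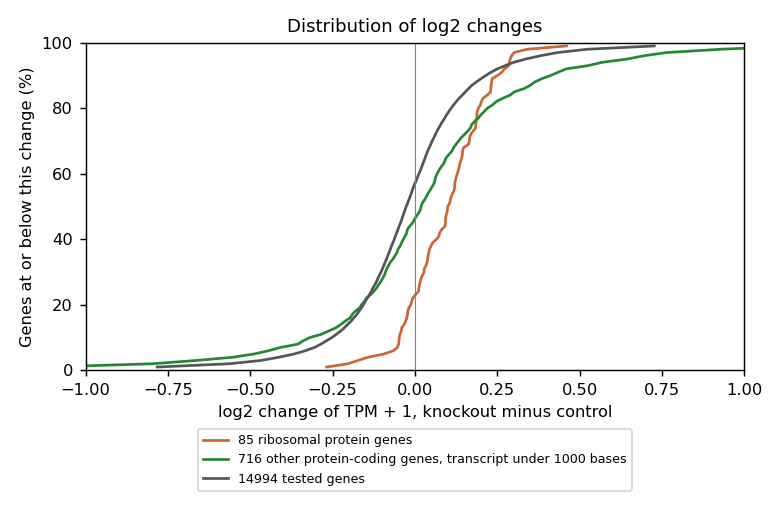
Share of genes (y axis, percent) at or below a given log2 change of TPM + 1, knockout minus control (x axis), for the 85 members, 716 other protein-coding genes with a transcript under 1000 bases and all 14994 tested genes. Around its median of 0.10 the members' curve lies to the right of both others. It crosses the curve of the other short genes between percentiles 76 and 77 and that of all tested genes between 93 and 94. Above these points it lies to their left, at 0.251 against 0.413 for the other short genes at percentile 90.

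Levels differed widely among the member rows. The ribosome holds most of the proteins in equal number, but not every row stands for a ribosomal protein of its own. The mean over the 6 libraries ranged from 23.7 TPM for Rpl37rt to 6591 TPM for Rplp1, with a median of 1359 TPM. Of the 85 members, 40 lay between 1000 and 2000 TPM, 15 above, 10 between 500 and 1000 TPM, 15 between 100 and 500 TPM and 5 under 100 TPM. Of those 5, Rpl37rt and Rps4l are annotated as transcribed pseudogenes, Rpl7l1 is a like-named relative and Rps19bp1 encodes a binding partner. Rps6 is the other, and its row held 6.21% of its sum with an identical copy. Rpl23 and Rps15a, at 103 and 126 TPM, also held under 50% of such sums, as described further on. Rplp1, an acidic protein of the stalk that calls elongation factors to the ribosome, was the second most abundant row of the cortex. The members lay on 19 chromosomes, 14 of them on chromosome 7.

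The acidic stalk overlapped between the groups. Rplp1 was at 7029, 6755 and 6129.6 TPM in the controls and 6414, 6452 and 6767 TPM in the knockouts (log2 change −0.02, limma adjusted p = 0.973). Its partner Rplp2 was at 4057, 2362 and 3127 TPM in the controls and 3079.8, 3123 and 2719 TPM in the knockouts (log2 change −0.07). The controls of Rplp2 spread more widely than its knockouts. Rplp0, which anchors both to the large subunit, was at 2753 ± 155 and 2790.4 ± 131 TPM (control and knockout, SD, n = 3; log2 change 0.02). The 3 stalk genes took 1.26% ± 0.0996 of the TPM in the controls and 1.23% ± 0.0157 in the knockouts (SD, n = 3).

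Of the other abundant members of the large subunit, Rpl23a, which lines the exit of the peptide tunnel, was at 3917, 3489 and 3492 TPM in the controls and 4156, 3643 and 3817 TPM in the knockouts. Rpl13 was at 2585 ± 347 and 2624 ± 172 TPM, Rpl38 at 2686 ± 311 and 2499.8 ± 188 TPM and Rpl9 at 2349 ± 112 and 2405 ± 40.3 TPM (control and knockout, SD, n = 3). All of these overlapped. Rpl41, the smallest protein of the ribosome, had the largest relative spread among the controls, at 3298, 1851 and 2082 TPM in the controls and 2678, 2097 and 2144 TPM in the knockouts. Its log2 change of −0.03 became 0.22 without control replicate 1, where that of Rplp2 became 0.13. The 10 most abundant members together took 3.146% ± 0.274 of the TPM in the controls and 3.147% ± 0.114 in the knockouts (SD, n = 3), with overlap.

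Within the large subunit, 40 of 50 rows had a log2 change above 0, with a median of 0.10. The 13 of 50 rows with every knockout library above every control library (5.2% over all tested genes) included Rpl19, Rpl28, Rpl26 and Rpl32. Rpl19, a protein that bridges the subunits, was at 1169, 1318 and 1199 TPM in the controls and 1563, 1477 and 1447 TPM in the knockouts. Its log2 change of 0.28 (SE 0.0773) had a limma adjusted p of 0.273, which lay between 0.201 and 0.618 in the other settings. Rpl28 was at 1627, 1870.01 and 1848 TPM in the controls and 2353, 2032 and 2174 TPM in the knockouts (log2 change 0.30, SE 0.0903, limma adjusted p = 0.353). These knockout values of Rpl19 and Rpl28 did not meet the control values in any library. Rpl26, which sits near the exit of the peptide tunnel, was at 1626 ± 154 and 1952 ± 89.8 TPM and Rpl32 at 1409 ± 56.3 and 1694 ± 160.3 TPM (control and knockout, SD, n = 3; log2 changes 0.27 and 0.26).

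At the other end of the large subunit stood Rpl22, a protein that the ribosome can do without and that has a paralog, Rpl22l1. Rpl22 was at 237, 202 and 218 TPM in the controls and 181, 195 and 209 TPM in the knockouts, with overlap (log2 change −0.17, SE 0.0851, limma adjusted p = 0.645). Rpl22l1 was at 278, 319 and 297 TPM in the controls and 289, 273 and 362 TPM in the knockouts (log2 change 0.04). The paralog made up 59.4% of the pair.

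Within the small subunit, 25 of 35 rows had a log2 change above 0, with a median of 0.10, and in 8 rows every knockout library lay above every control library (5.2% over all tested genes). Rps27a, which is made as a fusion with ubiquitin, was at 748, 828 and 775 TPM in the controls and 934, 931 and 898 TPM in the knockouts. Its log2 change was 0.23 (SE 0.0698, limma adjusted p = 0.331). Rps12 was at 776, 690.4 and 664 TPM in the controls and 1024, 766 and 862 TPM in the knockouts, where the lowest knockout lay below the highest control (log2 change 0.31).

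Rps2, which lies at the entrance of the mRNA channel, was the member with every knockout library below every control library. It was at 2828, 2124 and 2179 TPM in the controls and 2103, 2069.6 and 1789 TPM in the knockouts (log2 change −0.25, SE 0.123, limma adjusted p = 0.619). Its lowest control and its highest knockout were close, and without control replicate 1, the highest library, the log2 change was −0.12. Rpsa, a small subunit protein that doubles as a laminin receptor, was at 2487 ± 221 and 2504 ± 131 TPM, Rps29 at 2738 ± 139.97 and 2954 ± 527 TPM and Rps19 at 2053 ± 64.97 and 2079 ± 126 TPM (control and knockout, SD, n = 3). These 3 overlapped between the groups.

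**Figure D4:**
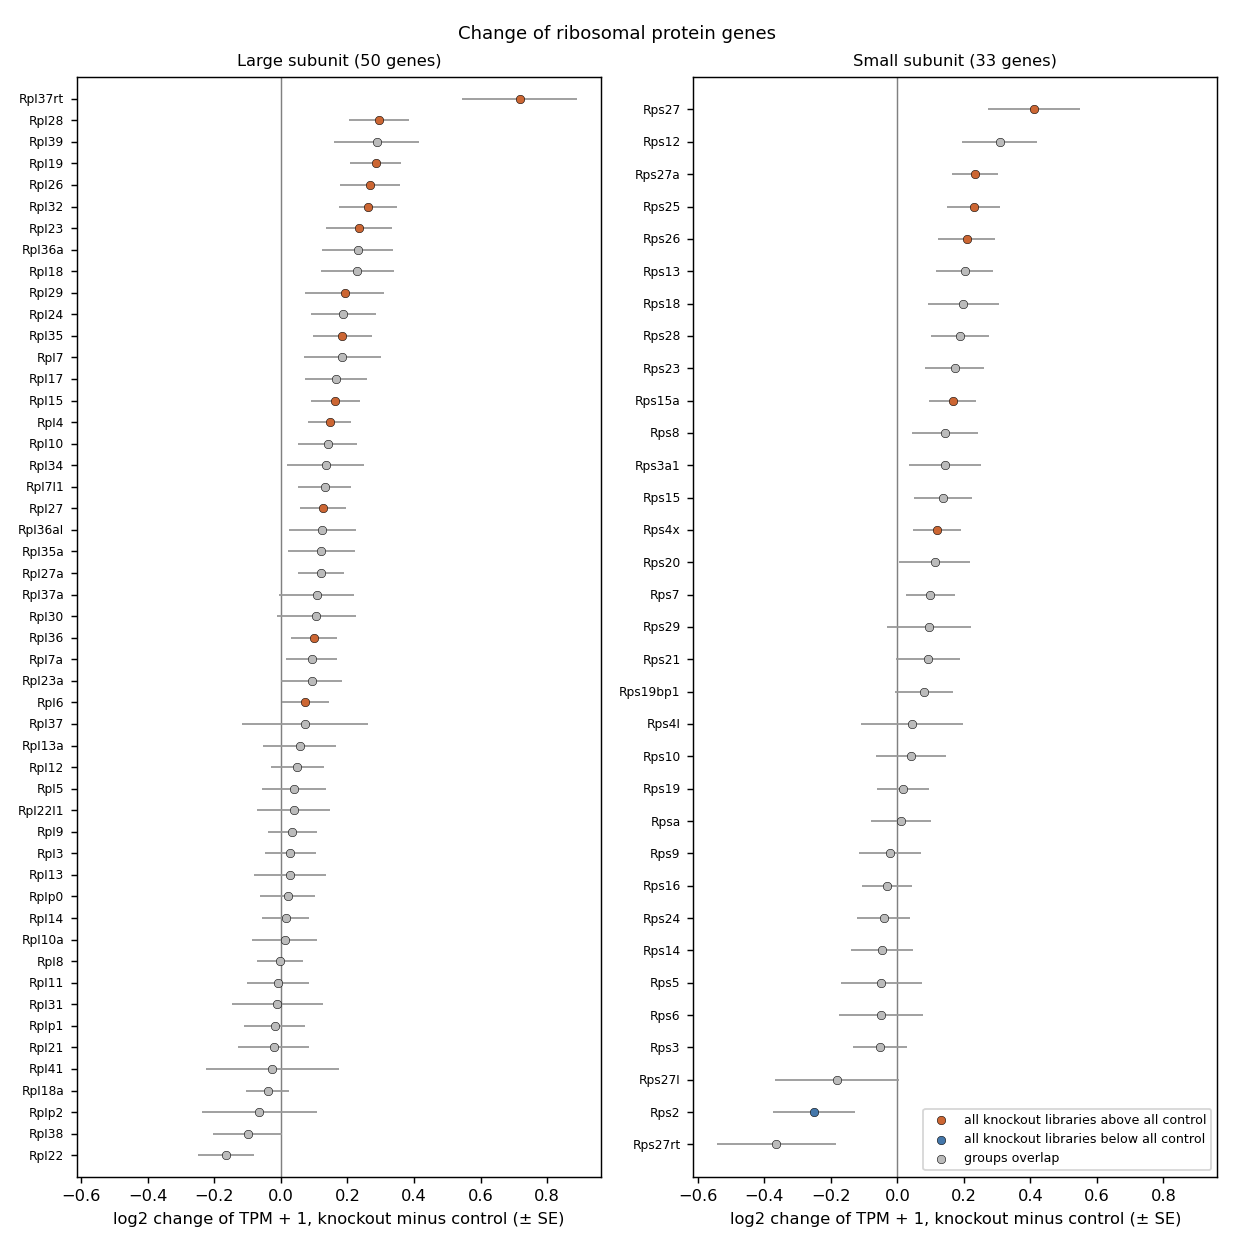
Log2 change of TPM + 1, knockout minus control (x axis, point), with its standard error from limma (line), for 50 large subunit and 33 small subunit rows, sorted by change. Coloured points are genes whose groups do not overlap, 19 with the knockout above and 1, Rps2, below, and most points lie to the right of 0 without any passing the adjusted threshold.

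Genes with a known role outside the ribosome or in disease were read as lists. Rpl5, Rpl11 and Rpl23 bind Mdm2, the ubiquitin ligase that keeps p53 low, when ribosome assembly is disturbed. Rpl5 was at 359.8 ± 12.01 and 372 ± 49.4 TPM and Rpl11 at 1096 ± 22.4 and 1094 ± 128 TPM (control and knockout, SD, n = 3). Rpl23 was at 103, 80.9 and 102 TPM in the controls and 113, 113 and 108 TPM in the knockouts (log2 change 0.23), a row that has a near-identical copy described further on. Of 19 genes mutated in Diamond-Blackfan anaemia, an inherited failure to make red blood cells, 0 passed the threshold. In this list 16 of 19 had a log2 change above 0, with a median of 0.13, and in 8 every knockout library lay above every control library. Rps15a is one of these 8, and its order reversed once near-identical rows were added, as described further on. Over all tested genes 43.0% were above 0 and 5.2% had every knockout above.

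Several rows outside the members were near-identical copies of a member, and reads from such a pair can be hard to assign. The coding sequence of each member was compared with the transcripts of rows matched to GENCODE. In all, 55 pseudogene or predicted rows matched a member over at least 80% of its coding sequence at 90% identity or more. They belonged to 35 parent genes and took 0.345% ± 0.0357 of the TPM in the controls and 0.357% ± 0.0114 in the knockouts (SD, n = 3). With the copies added to their parents, the parent row held under 50% of the sum in 3 cases, Rps6, Rpl23 and Rps15a. These copies, and Rps15a, were chosen after their values were seen.

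Rps6, the small subunit protein phosphorylated by the S6 kinases, was among the lowest members by its own row. It was at 70.2, 60.7 and 57.1 TPM in the controls and 70.3, 61.3 and 50.9 TPM in the knockouts. A processed pseudogene on chromosome 2 (LOC105244208, 75191073 to 75191822, minus strand, GRCm38) has a sequence that differs from the 750-base Rps6 coding sequence at 0 bases. That row was at 1018, 932 and 909 TPM in the controls and 867, 965 and 908 TPM in the knockouts. The sum of both was 1016 ± 64.4 and 974 ± 46.3 TPM (control and knockout, SD, n = 3), and the Rps6 row held 6.21% of it. The log2 change of the sum was −0.06 (limma adjusted p = 0.884).

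Rpl23 stood in the same relation to Gm9794, a processed pseudogene on chromosome 6 (66875321 to 66875743, minus strand, GRCm38). The sequences differ at 1 of 423 coding bases, the substitution C253T, counted from 1 at the first base of the coding sequence and given as Rpl23 base, position, Gm9794 base. The bases around it, with the differing base in capitals, show how little separates the rows.
Rpl23: aattcgacaaCgaaagtcata
Gm9794: aattcgacaaTgaaagtcata
Gm9794 was at 1089, 745 and 777 TPM in the controls and 863, 711 and 868 TPM in the knockouts. In the Rpl23 row alone every knockout library lay above every control library, but the sum of both rows overlapped. The sum was at 1192, 826 and 879 TPM in the controls and 975, 824 and 976 TPM in the knockouts. Its log2 change was −0.05, against 0.23 for the Rpl23 row alone.

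Rps15a gave opposite orders by the same comparison. Its own row was at 120.2, 124 and 112 TPM in the controls and 136, 129 and 136 TPM in the knockouts, all knockouts above. Summed with Rps15a-ps4, Rps15a-ps5 and Rps15a-ps6, which differ from it at 10, 5 and 5 of 393 coding bases, it was at 411, 425 and 412 TPM in the controls and 368, 373 and 392 TPM in the knockouts, all knockouts below. The log2 change went from 0.17 (limma adjusted p = 0.551) to −0.14 (limma adjusted p = 0.584). Other sums moved the other way. Rpl31 went from −0.01 with overlap to 0.12 with all knockouts above once Rpl31-ps12 was added. With Gm9385 added, Rpl24 went from 0.19 with overlap to 0.22 with all knockouts above. Both were also chosen after their values were seen. Rps7 overlapped by its own row and had all knockouts above in its sum, with a log2 change of 0.10 either way.

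Rps27 had the largest positive log2 change of the small subunit and its retrogene Rps27rt the largest negative one of all members. Rps27 was at 1336, 1735 and 1649.7 TPM in the controls and 2479, 2043 and 1777 TPM in the knockouts (log2 change 0.41, SE 0.139, limma adjusted p = 0.418). Rps27rt was at 606, 465 and 538 TPM in the controls and 309, 439.7 and 524 TPM in the knockouts (log2 change −0.36, SE 0.179, limma adjusted p = 0.619). Knockout replicate 1 had the highest Rps27 and the lowest Rps27rt, and control replicate 1 had the lowest Rps27 and the highest Rps27rt. The coding sequences, 255 bases long, differ at 0 bases. The sum of both rows was 2109.8 ± 145 and 2523 ± 246 TPM (control and knockout, SD, n = 3), with all knockouts above all controls and a log2 change of 0.26 (limma adjusted p = 0.480).

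**Figure D5:**
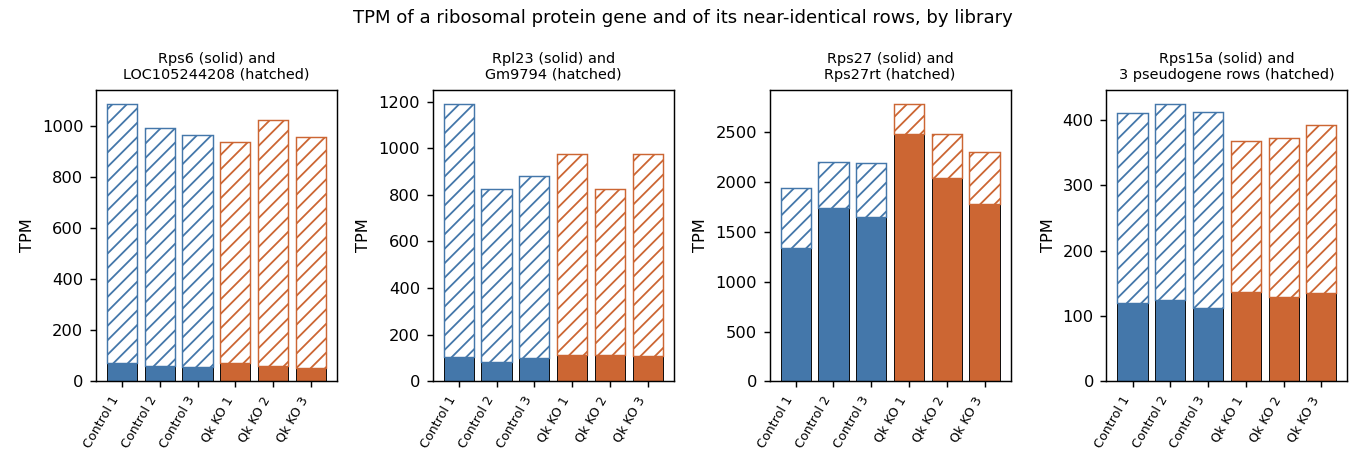
TPM (y axis, from 0) in each of the 6 libraries (x axis) of Rps6, Rpl23, Rps27 and Rps15a (solid bars) with the TPM of their near-identical rows stacked on top (hatched). The hatched part exceeds the solid part for Rps6, Rpl23 and Rps15a, and for Rps27 it is largest in control replicate 1 (606 TPM) and smallest in knockout replicate 1 (309 TPM).

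Rpl37rt, a retrogene of Rpl37, had the largest log2 change and the smallest p of all members. It was at 12.9, 20.5 and 20.3 TPM in the controls and 29.1, 33.3 and 26.4 TPM in the knockouts, all knockouts above (log2 change 0.72, SE 0.173, limma adjusted p = 0.194). Over the other settings this adjusted p lay between 0.146 and 0.427 (limma). Its parent Rpl37, a zinc-binding protein of the large subunit, was at 771, 516 and 618 TPM in the controls and 745, 493 and 778 TPM in the knockouts, with overlap (log2 change 0.07). The transcripts differ at 1 of 294 coding bases, substitution G249A, counted and given as for Rpl23.
Rpl37: agggaacaacGccgaaaccca
Rpl37rt: agggaacaacAccgaaaccca
The sum of both rows was 653 ± 124 and 702 ± 152 TPM (control and knockout, SD, n = 3; log2 change 0.10), and Rpl37rt was 3.51% of the pair.

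Paralogs known from other tissues were low in this cortex. Rpl3l, which replaces Rpl3 in striated muscle, had a mean of 0.348 TPM and Rpl39l, known from the testis, 0.700 TPM. Rpl10l, the testis paralog of the X-linked Rpl10, was listed at 0 in all 6 libraries. Rpl32l had a mean of 0.0717 TPM. These 4 symbols met the rule on names and missed the level for membership. Their parents Rpl3 (1521 ± 50.1 and 1552 ± 92.1 TPM), Rpl39 (1262 ± 194 and 1535 ± 185 TPM) and Rpl10 (1390.04 ± 115 and 1531 ± 112 TPM; control and knockout, SD, n = 3) overlapped between the groups, while Rpl32, the parent of Rpl32l, did not, as given above.

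Other paralogs were present beside their parents, given here as control and knockout means ± SD (n = 3). Rpl36al, an autosomal copy of the X-linked Rpl36a, made up 61.6% of the pair, at 319.9 ± 21.2 and 350.1 ± 44.1 TPM, beside Rpl36a at 191 ± 6.50 and 226 ± 33.4 TPM. Rps27l, a p53 target in other settings, was at 222 ± 45.5 and 197 ± 44.1 TPM. Rps4l, annotated as a transcribed pseudogene, was at 84.7 ± 16.8 and 86.99 ± 13.3 TPM, beside the X-linked Rps4x at 1371 ± 59.7 and 1488 ± 44.3 TPM. Rps4x had every knockout library above every control library, and the others of this paragraph overlapped. Rpl7l1, a like-named relative of Rpl7 (1471 ± 213 and 1663 ± 136 TPM), was at 35.4 ± 1.24 and 38.9 ± 1.998 TPM. Rps19bp1, which met the rule by name although it encodes a binding partner of Rps19, was at 74.6 ± 3.07 and 79.2 ± 7.92 TPM. Of the 7 tested genes of the list of paralogs, 0 passed the threshold, 5 had a log2 change above 0 and the median was 0.04.

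Ribosomal proteins that the rule on names leaves out were read the same way. Rack1, a scaffold on the head of the small subunit, was at 1252, 1323 and 1332 TPM in the controls and 1459.7, 1471 and 1448 TPM in the knockouts, without overlap (log2 change 0.16, limma adjusted p = 0.543). Of the 3 such genes tested, 0 passed, 3 had a log2 change above 0 and the median was 0.11.

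Outside the ribosome itself, genes of translation had no call. Of 17 translation factors and related genes whose mRNAs carry the pyrimidine tract, 0 passed, 13 had a log2 change above 0 and the median was 0.05. They took 1.25% ± 0.0276 of the TPM in the controls and 1.32% ± 0.0224 in the knockouts (SD, n = 3), without overlap. Eef1a1, which brings aminoacyl-tRNA to the ribosome, was at 4924, 5059 and 4774 TPM in the controls and 5284, 5261 and 5207 TPM in the knockouts, all knockouts above. Tpt1 was at 2222 ± 239 and 2444 ± 145 TPM with overlap (control and knockout, SD, n = 3). Of 26 initiation factors 0 passed and 14 were above 0 (median 0.02). Eif5a was at 790.5 ± 20.3 and 747 ± 27.3 TPM and Eif4a1, an RNA helicase, at 615 ± 34.8 and 590.3 ± 16.1 TPM (control and knockout, SD, n = 3).

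Of 42 genes of ribosome biogenesis 0 passed, 23 had a log2 change above 0 and the median was 0.02, with every knockout above every control in 1 and below in 4 (5.2% and 8.98% over all tested genes). Nop10, a part of the pseudouridylation complex, was at 274 ± 28.8 and 291 ± 8.50 TPM and Rrp1 at 211 ± 5.80 and 216 ± 15.6 TPM (control and knockout, SD, n = 3). Of 77 proteins of the mitochondrial ribosome 0 passed and 38 were above 0 (median −0.003), with every knockout above every control in 8 and below in 2. At an unadjusted p under 0.05, 6 of these 77 were higher and 2 lower, and of the 42 biogenesis genes 1 was higher and 3 lower. Over all tested genes 3.42% were higher and 5.3% lower at that level. The share of the TPM of the mitochondrial ribosomal proteins was 0.687% ± 0.00472 in the controls and 0.704% ± 0.0350 in the knockouts (SD, n = 3), with overlap. Mrpl33 was at 340.3 ± 46.1 and 424 ± 25.3 TPM and Mrps21 at 349 ± 59.6 and 325 ± 21.4 TPM (control and knockout, SD, n = 3). The difference in median between these lists and the members was not tested.

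Genes with an Rps6k symbol, and a list with regulators of the ribosomal protein mRNAs, had no call either. Of 10 genes with an Rps6k symbol, S6 kinases and their relatives, 0 passed and 4 had a log2 change above 0 (median −0.03). Every knockout lay below every control in 3 of the 10, Rps6kl1 among them, and above in 0 (8.98% and 5.2% over all tested genes). Rps6kb2, an S6 kinase, was at 55.6 ± 9.52 and 64.2 ± 5.001 TPM and Rps6kl1 at 56.1 ± 1.88 and 50.5 ± 2.77 TPM (control and knockout, SD, n = 3). Of 17 genes of the mTOR pathway, regulators of these mRNAs and genes of the Myc and Max network 0 passed and 6 were above 0 (median −0.04). In 2 of these 17 every knockout lay below every control, and in 0 above. Rheb, the GTPase that switches mTOR on, was at 179 ± 24.7 and 165 ± 11.9 TPM and Akt1s1, an inhibitor of the same kinase, at 96.5 ± 2.66 and 98.8 ± 9.74 TPM (control and knockout, SD, n = 3).

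Quaking binds RNA at short motifs, searched here as ACTAAC or ACTAAT on the sense strand of the main GENCODE transcript. A motif occurred in 17 of 83 protein-coding members (20.5%), against 45.4% of 13834 tested protein-coding genes, whose transcripts are longer. Among transcripts under 1000 bases the shares were 13.2% of 53 members and 12.8% of 716 other genes. The 17 members with the motif, among them Rpl32, Rpl22 and Rplp0, had a median log2 change of 0.04 and the members without it of 0.11. Among members with a transcript under 1000 bases the medians were 0.08 with the motif and 0.11 without it. In the other genes of that length they were 0.04 with it and 0.02 without it, the opposite order. These differences were not tested, and a match is not a bound site. The motif counts rest on the transcript picked for each gene, as given for length above.

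Summed markers of several cell types also did not overlap between the groups, beside the ribosomal protein share. These sums were not tested. The 8 cortex markers summed to 773 to 835 TPM in the controls and 839 to 849.7 TPM in the knockouts, with 0 past the threshold. The 8 markers of progenitors and cycling cells summed to 223 to 237 TPM in the controls and 252 to 265 TPM in the knockouts, with 0 past the threshold. The 6 astrocyte markers summed to 650.3 to 696 TPM in the controls and 458 to 507 TPM in the knockouts, and 2 of them fell. The 6 markers of the oligodendrocyte lineage summed to 327 to 341 TPM in the controls and 271 to 278 TPM in the knockouts, where 2 fell and 1 rose. Microglia markers summed to 182 to 192 TPM in the controls and 197 to 199 TPM in the knockouts, with 0 past the threshold. The sums for neurons, striatum, choroid plexus, red blood cells and endothelium overlapped between the groups, and no marker was at 0 in all libraries. The part of these cell types in the ribosomal protein share was not tested.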

How the data were processed

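Polyadenylated RNA of 6 mouse cortex libraries was measured on an Ion Proton sequencer, per the labels. The authors deposited TPM per gene and library, and the submitters' processing notes name STAR 2.4.1d, RSEM 1.3.0 and the builds mm10 and GRCm38.p4. How reads that map to several genes were shared is not given in the sources used here. Depth is unknown from TPM, and 18971 to 19710 rows per library were above 0.

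Groups came from the genotype labels. Rows with a mean of at least 1 TPM were fitted as log2(TPM + 1) with limma 3.58.1 (R 4.3.3, mean-variance trend), knockout minus control, with Benjamini-Hochberg adjustment over 14994 genes and a threshold of 0.05. A fold on this scale understates the change of low genes. Copies were found with BLAST+ 2.17.0 against GENCODE M21 transcripts, and 3493 rows above 0 that did not match GENCODE were not searched. Alternatives covered the pseudocount, filter, scaling, variance model, length and GC, the replicate block and leaving out each library. Summing copies was added after seeing the data.

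The members and lists were chosen with earlier results of these data known. Named genes were Qk, the 10 most and 5 least abundant members, the 5 largest changes each way, the 5 smallest p, the 5 widest control spreads, paralogs with their parents, Rpl5, Rpl11, Rpl23, Rpsa and the stalk, and the 2 most abundant genes of each other list. A few genes that the rule names, or that were named in addition, are not reported here and not drawn in the plot by member.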

Additional observations from a re-analysis of the deposited data

How the results depend on the processing

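In all 19 alternatives 0 members passed the limma threshold in either direction. The share of the members stayed higher in the knockout in the 13 alternatives run for it, by 0.514 to 0.870 percentage points with a library left out. The genes past the threshold among all tested, 58 in the report, numbered 37 with no filter, 28 without the trend and 20 to 53 with a library left out. The main fit did not pair libraries by replicate number, and whether the numbers match across groups is not labelled. Deviations of same-numbered libraries correlated at 0.035, 0.031 and 0.013, each the highest for its library, a hint from the data and not the design. With the replicate block 38 genes passed, and 27 with the block and the length and GC correction. The members' median log2 change was 0.13 after median-of-ratios scaling, 0.072 after quantile normalization, 0.0766 after the length and GC correction with or without the replicate block, and 0.0814 to 0.127 with a library left out.

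Some small changes took the other sign, and the cause was not tested. After median-of-ratios scaling Rpl31 was at 0.019, Rplp1 at 0.0114, Rpl11 at 0.0209 and Rpl41 at 0.0037. After quantile normalization Rpsa was at −0.0133, Rps19 at −0.0224, Rpl13 at −0.0200 and Rpl3 at −0.0132. After the length and GC correction, with or without the replicate block, Rpl22l1 was at −0.0238. With copies summed, Rpl31 was at 0.123, Rps15a at −0.141 and Rpl23 at −0.0469.

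With a library left out, the log2 change took both signs in these ranges: Akt1s1 −0.0505 to 0.0708, Mrps21 −0.191 to 0.0424, Rheb −0.19 to 0.00107, Rpl11 −0.0907 to 0.0785, Rpl13 −0.0435 to 0.135, Rpl22l1 −0.083 to 0.12, Rpl3 −0.0158 to 0.0694, Rpl31 −0.155 to 0.0979, Rpl37 −0.067 to 0.281, Rpl41 −0.193 to 0.223, Rpl5 −0.0639 to 0.119, Rpl9 −0.00112 to 0.0677, Rplp0 −0.0152 to 0.064, Rplp1 −0.0748 to 0.024, Rplp2 −0.263 to 0.127, Rps19 −0.0171 to 0.067, Rps27l −0.306 to 0.0203, Rps29 −0.0331 to 0.225, Rps4l −0.0856 to 0.192, Rps6 −0.158 to 0.0715, Rpsa −0.0414 to 0.0817, Rrp1 −0.0253 to 0.0718.
TPM holds no depth, so no counting error could be given, and 3 libraries a group limit what single members can show.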
